A study of Mus musculus with 4 samples.

Results

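The genes of the BCL2 family were examined in cultured mouse B cells, as 6 pro-survival members (Bcl2, Bcl2l1, Mcl1, Bcl2a1a, Bcl2a1b, and Bcl2a1d) and 4 pro-death members (Bcl2l11, Bbc3, Pmaip1, and Bax). These 10 genes, found by symbol, are 10 of the 31053 genes counted. The cells were wild-type splenic B cells of C57BL/6 mice, purified by negative selection and measured by scRNA-Seq. Bregs-CpG were cultured for 3 days with CpG B ODN 1668, which stimulates TLR9, and Bregs-TLR were such cells that also received LPS, PMA, and ionomycin during the final 5 hours, so CpG was shared by both groups. Each group had 2 replicates, and the sources used here do not say how many mice each came from. The cells came from 4 libraries, called 5, 6, 7, and 8 by the endings of their barcodes. No label ties a library to a replicate or group. The libraries were therefore treated as unassigned samples, each library's value is given on its own, and no test between Bregs-CpG and Bregs-TLR was made.

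Family members decide whether a cell keeps the outer membrane of its mitochondria intact. Bax, once active, permeabilizes that membrane and releases cytochrome c, which starts the caspase cascade. The pro-survival proteins bind and restrain it, and the BH3-only proteins Bim (encoded by Bcl2l11), Puma (Bbc3), and Noxa (Pmaip1) bind the pro-survival proteins in turn. In B cells, Bcl2 and Mcl1 maintain resting and activated cells, Bcl-xL (Bcl2l1) and A1 (the Bcl2a1 genes) are known as activation-induced survival genes, and Bim takes part in the removal of self-reactive cells.

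Between 4003 and 5621 cells per library passed the limits of at least 1000 genes and less than 10% unique molecular identifiers (UMIs) from mitochondrial genes, 18534 of 19920 in all, and the libraries held 44842982 to 63638158 UMIs. The median mitochondrial share was 7.22% and 7.18% in libraries 5 and 6, and 4.61% and 4.65% in libraries 7 and 8. Across libraries, 29 barcode sequences occurred more than once. Levels are in CPM, the UMIs of a gene for every 1000000 UMIs of its library. A UMI tags 1 captured mRNA end, so that its count does not grow with transcript length. Intervals at 95% are exact and cover counting error only. The B cell gene Cd74 was at least 5831 CPM in every library, whereas Ms4a1 (CD20) was 1499, 1510, 32.0, and 37.0 CPM in libraries 5, 6, 7, and 8. Of 6 T or NK cell markers, 4 (Cd3e, Cd4, Cd8a, and Nkg7) were at 0, and the list summed to 0.424 to 0.788 CPM. Of 6 myeloid markers, 3 (Lyz2, S100a8, and S100a9) were at 0, and the list summed to 0.416 to 2.98 CPM. Of 4 erythroid markers, Hba-a1 was at 0, and their sum of 4.62, 4.32, 219, and 285 CPM was nearly all Hbb-bt. Of the 2 platelet markers, Ppbp was at 0 and Pf4 reached at most 0.0387 CPM. The part of the mitochondrial share, Ms4a1, or Hbb-bt in the values below was not tested.

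Bcl2a1a, Bcl2a1b, and Bcl2a1d lie on chromosome 9 of GRCm38, at chr9:88956900-88962419, chr9:89199209-89207827, and chr9:88723285-88731914, the last on the minus strand. Their promoter sequences are shown first, followed by the near-identity of their transcripts, which limits how far counts of the 3 copies can be told apart. The stretch upstream of each start site, from RefSeq promoters on GRCm38.p6, is given 5′ to 3′ for Bcl2a1a (chr9:88956770-88956855, plus strand), Bcl2a1b (chr9:89199079-89199164, plus strand), and Bcl2a1d (chr9:88731915-88731994, minus strand). Capitals mark an AP-1 motif, searched in the broad form TGANTCA with any base at N, and the PU.1 motif (GAGGAAGT), each on both strands. The base at N was A in all 3 stretches.
Bcl2a1a: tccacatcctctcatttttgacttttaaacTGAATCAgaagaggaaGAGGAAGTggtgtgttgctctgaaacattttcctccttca
Bcl2a1b: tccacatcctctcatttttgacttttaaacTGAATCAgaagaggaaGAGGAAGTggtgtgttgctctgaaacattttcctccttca
Bcl2a1d: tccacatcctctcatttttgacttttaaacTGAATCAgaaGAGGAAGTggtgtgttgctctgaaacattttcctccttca
The stretches of Bcl2a1a and Bcl2a1b had no substitution between them, and that of Bcl2a1d lacked 6 bases and was otherwise the same. The AP-1 motif occurred in 7.81% of all 32851 promoters of the RefSeq table and the PU.1 motif in 3.20%. Counted by gene, the shares were 8.97% and 3.69%. Among the 9 members with an entry, only the 3 Bcl2a1 genes held either motif. The longest coding transcripts of the 3 genes were 98.2% to 99.1% identical. Of all 90-base windows in the last 500 bases, where a 3′ library reads, 39.7% for Bcl2a1a, 39.4% for Bcl2a1b, and 65.2% for Bcl2a1d were also present in another Bcl2a1 gene. No other member shared such a window with another member or with Bcl2a1c. Annotated genes on the same strand overlap Bcl2 (Mir3473f and Gm37053), Bcl2a1b (Gm29094), and Bax (Gm45808). On the other strand, D630008O14Rik overlaps Bcl2 and Gm10634 overlaps Bcl2a1d. Counts of the Bcl2a1 genes, single or summed, are therefore uncertain where reads match more than 1 copy.

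Among the pro-death genes, Bcl2l11 (chr2:128126038-128162547, plus strand) and Bbc3 (chr7:16308393-16318205, plus strand) were the 2 members with a FOXO motif (GTAAACA, both strands) in a promoter. This motif occurred in 3.65% of all promoters, and in at least 1 promoter of 4.05% of the 27025 genes with an entry. Bcl2l11 had 2 promoters in the table and Bbc3 had 3. FOXO factors are known activators of both genes, and the sites are shown because the levels of these genes are set beside Foxo1 below. The motif, in capitals, starts 227 bases before the Bcl2l11 start (chr2:128125788-128125847) and 167 bases before a Bbc3 start (chr7:16310064-16310130), where it is read as TGTTTAC. Neither stretch overlaps an annotated exon of a member. A kappaB motif was found in promoters of Bbc3 and Bcl2l1 and in 8.46% of all promoters, and the CRE motif (TGACGTCA, 1.79% of all promoters) in no member's. Counted by gene, the shares were 9.55% for kappaB and 2.03% for CRE.
Bcl2l11: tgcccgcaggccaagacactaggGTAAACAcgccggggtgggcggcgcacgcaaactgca
Bbc3: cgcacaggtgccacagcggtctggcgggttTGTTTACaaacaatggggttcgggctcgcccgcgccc

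Of the pro-survival members, Mcl1, which encodes a short-lived protein required for B cell survival (chr3:95658788-95663176, plus strand), was 524 CPM in library 5, 540.5 CPM in library 6, 261 CPM in library 7, and 250.2 CPM in library 8. Its highest library was 2.16-fold above its lowest (2.11 to 2.21). Bcl2l1 (chr2:152780668-152831728, minus strand) went the other way, with 9.43, 9.84, 35.3, and 38.1 CPM in libraries 5, 6, 7, and 8. This was a 4.04-fold range (3.63 to 4.50). For both genes, libraries 5 and 6 lay close together and far from libraries 7 and 8, Mcl1 above them and Bcl2l1 below.

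Bcl2 (chr1:106538178-106714274, minus strand) was 269, 291, 231, and 234 CPM, a range of 1.26-fold (1.23 to 1.29). Scaled to all UMIs, it varied least among the abundant members. Bcl2a1b was 454, 439, 307, and 297 CPM, a range of 1.52-fold (1.49 to 1.56), again highest in libraries 5 and 6. Bcl2a1d did not follow this order. It was 192, 178, 229, and 144 CPM, so that libraries 7 and 8 held its highest and its lowest value, 1.60-fold apart (1.55 to 1.64). Bcl2a1a was near the limit of detection at 2.32, 2.90, 3.03, and 2.76 CPM. Summed over the 3 copies, the Bcl2a1 genes were 648, 619.6, 539, and 444 CPM. How reads that match more than 1 copy were counted was not examined, so this sum may lack some of them.

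Libraries 7 and 8 were otherwise alike. The comparison of these 2 libraries was added after the Bcl2a1d values were seen, and a 1.5-fold difference between them was found for 50 of 8234 genes (0.607%), of which Bcl2a1d ranked 29 by size. Of the 50 genes, 41 were higher in library 7. In clusters B, C, and F (described below), which had at least 50 cells of both libraries, Bcl2a1d was higher in library 7, with 226 and 137 CPM in cluster B, 237 and 152 CPM in cluster C, and 234 and 164 CPM in cluster F. The near-identical Bcl2a1b did not differ in this way, with 326 and 300.0 CPM in cluster B, 277 and 291 CPM in cluster C, and 269.6 and 271 CPM in cluster F. Whether reads shared between the copies have a part in this was not tested.

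The pro-death members were highest in library 7 or 8. Bax (chr7:45461697-45466898, minus strand), the effector that opens the mitochondrial membrane, was 222, 223, 357, and 326 CPM in libraries 5, 6, 7, and 8, a range of 1.61-fold (1.57 to 1.65). Bcl2l11 was 59.6, 60.2, 94.8, and 86.3 CPM, a range of 1.59-fold (1.52 to 1.67). Pmaip1 was low, at 6.42, 6.45, 11.4, and 10.4 CPM, a range of 1.77-fold (1.55 to 2.04). All 3 were lower in libraries 5 and 6 than in libraries 7 and 8. Bbc3, in contrast, stayed between 20.2 and 22.9 CPM, a range of 1.13-fold (1.04 to 1.23).

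**Figure D1:**
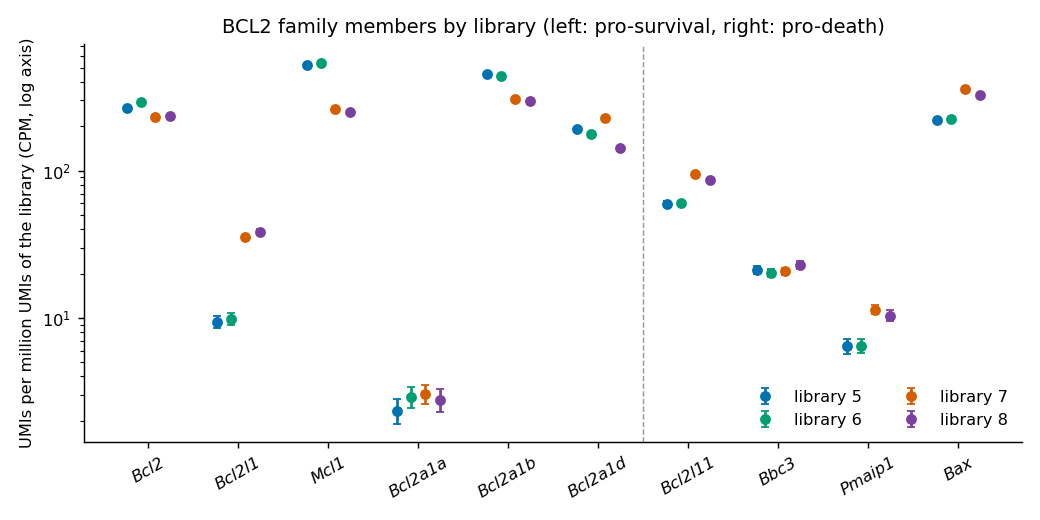
Levels of the 10 members in CPM on a log axis, as 1 point per library with exact Poisson 95% intervals. Mcl1 and Bcl2a1b are highest in libraries 5 and 6, Bcl2l1, Bcl2l11, Pmaip1, and Bax in libraries 7 and 8, and Bcl2a1d separates library 7 from library 8.

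Of the 10 members, 9 reached 5 CPM over all cells, and for 2 of these (Mcl1 and Bcl2l1) the highest library was at least 2-fold above the lowest. The share among all 8234 genes at this level was 29.8%. The median range was 1.60-fold for the members and 1.58-fold for all genes. The choice of denominator mattered for the smaller differences. With all UMIs as the denominator, the median gene was 0.23 higher in library 7 than in library 5 on the log2 scale and 0.17 higher in library 8, and this shift was 0.04 and 0.02 once mitochondrial, ribosomal protein, and immunoglobulin genes were left out. With edgeR's TMM factors, which put the median at -0.01, library 7 exceeded library 5 by 1.37-fold for Bax, 1.35-fold for Bcl2l11, and 3.19-fold for Bcl2l1. Bcl2a1d was then nearly equal in both (1.02-fold, compared with 1.19-fold before), and Bbc3 was 0.839-fold (0.986-fold before). The range of Bcl2 over the libraries was 1.45-fold with TMM factors, above that of Bax (1.39-fold). On that scale Bcl2 no longer varied least among the abundant members.

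A ratio of 2 sets of genes within a library does not depend on that denominator. The pro-survival members held 4.70 UMIs for each pro-death UMI in library 5 (4.61 to 4.79), 4.72 in library 6 (4.64 to 4.80), 2.21 in library 7 (2.18 to 2.24), and 2.17 in library 8 (2.13 to 2.20). With all members summed, libraries 5 and 6 did not differ beyond counting error, nor did libraries 7 and 8. The 2 higher values were more than 2-fold above the 2 lower ones. Both sides differed between libraries. The pro-survival sum was 1449.9, 1461, 1067, and 966 CPM, and the pro-death sum was 309, 309.8, 484, and 446 CPM.

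The composition of the pro-survival side differed between libraries more than that of the pro-death side. Mcl1 held 36.2% and 37.0% of pro-survival UMIs in libraries 5 and 6, compared with 24.5% and 25.9% in libraries 7 and 8. Bcl2l1 held 0.651%, 0.673%, 3.31%, and 3.95%, so that even at its highest it was a small part of the sum. Bcl2a1b held between 28.8% and 31.3% in every library. Bax held between 71.8% and 73.8% of pro-death UMIs and Bcl2l11 between 19.3% and 19.6%. The ratio without the Bcl2a1 genes was 2.60 (2.55 to 2.65), 2.72 (2.67 to 2.77), 1.09 (1.07 to 1.11), and 1.17 (1.15 to 1.19). These intervals did not overlap between libraries 5 and 6, nor between libraries 7 and 8. With 9 other relatives added to all members, the ratio was 3.56, 3.54, 1.89, and 1.85. The relatives were Bcl2l2 and Bcl2l10 as pro-survival, and Bak1, Bok, Bid, Bad, Bik, Bmf, and Hrk as pro-death. The added UMIs were nearly all pro-death, so a lower ratio follows from the genes added. In library 5, pro-survival UMIs went from 65017 to 65160 and pro-death UMIs from 13840 to 18328. The order of the libraries changed within each close pair only.

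**Figure D2:**
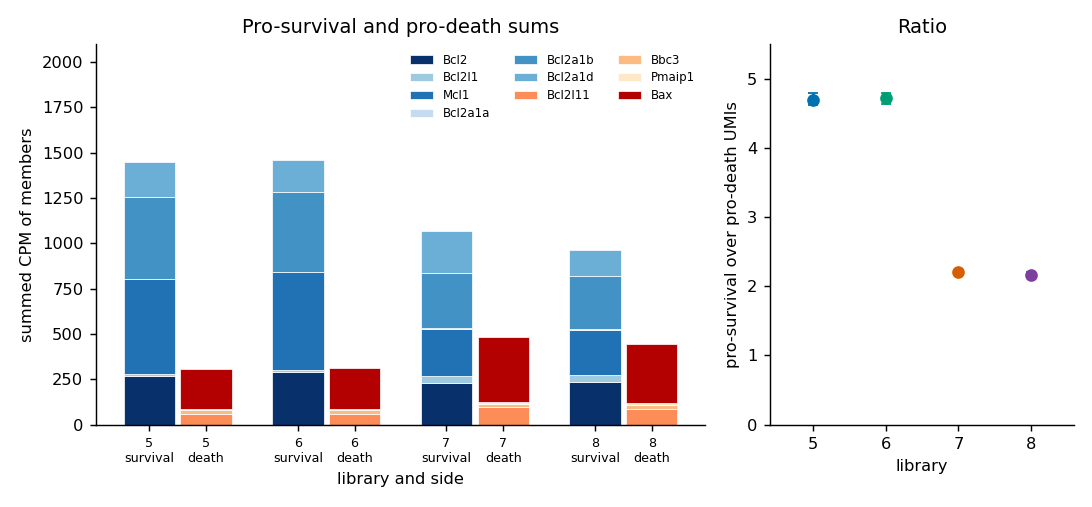
Left, stacked CPM of the pro-survival (blue) and pro-death (red) members in each library. Right, the ratio of pro-survival to pro-death UMIs per library with exact 95% intervals, which is 4.70 and 4.72 in libraries 5 and 6 and 2.21 and 2.17 in libraries 7 and 8.

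For a comparison cell by cell, each cell was thinned to 5000 UMIs, which left out 114 to 233 shallower cells per library. Mcl1 was then detected in 90.1%, 90.9%, 71.5%, and 68.9% of cells in libraries 5, 6, 7, and 8. Bcl2a1b was detected in 79.3%, 80.1%, 64.6%, and 63.8%, and Bax in 61.5%, 63.3%, 80.7%, and 78.6%. Detection of Bcl2l1 was 4.53%, 4.70%, 15.7%, and 16.5%, and that of Pmaip1 3.42%, 3.13%, 5.27%, and 4.81%. These shares ordered the libraries as the CPM did, apart from the order of libraries 5 and 6. No cell type here is known to lack the family, so Jchain served as a gauge of free RNA. Outside the Jchain-high cluster, 0.151% to 0.544% of cells had a Jchain UMI. Bcl2a1a, in 1.02% to 1.28% of cells, was closest to this gauge. Jchain RNA came mainly from the few cells of that cluster, so the gauge cannot bound free RNA of members found in most cells.

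The median cell held 85.7% pro-survival UMIs among its family UMIs in library 5, 83.3% in library 6, 70.0% in library 7, and 68.8% in library 8. Cells with more pro-death than pro-survival UMIs made up 3.22%, 3.07%, 14.8%, and 15.6% of cells. Those without a pro-death UMI made up 27.3%, 25.7%, 12.2%, and 13.2%. The difference was thus seen in the median cell, and the distributions of the 4 libraries overlapped. At a median of 7 or 8 family UMIs per cell, the state of a single cell cannot be read from these shares.

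**Figure D3:**
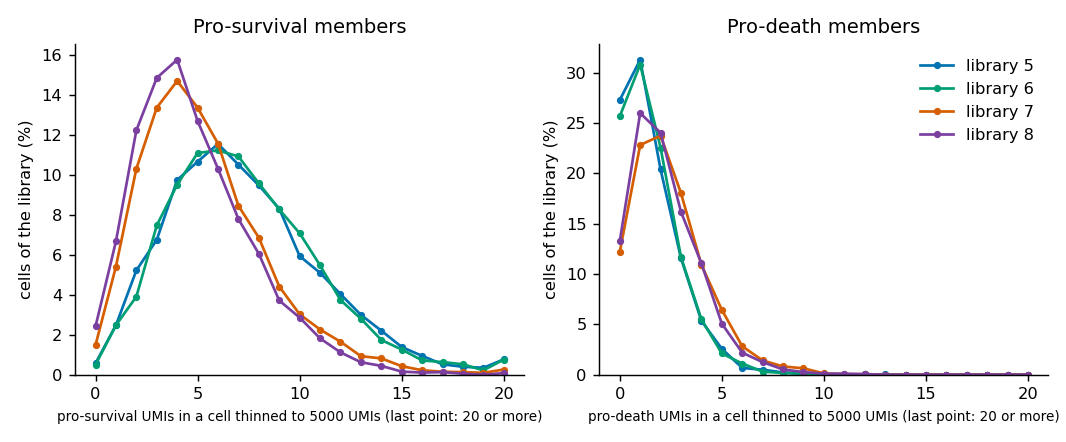
Share of cells of each library (y axis, %) by the number of pro-survival (left) or pro-death (right) UMIs per cell after thinning to 5000 UMIs. Libraries 7 and 8 have fewer pro-survival and more pro-death UMIs per cell, and 27.3% and 25.7% of cells in libraries 5 and 6 have no pro-death UMI.

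Bcl2l11 was spread over single cells differently from Bax. The share of cells with a Bcl2l11 UMI was nearly the same in the 4 libraries, at 22.5%, 24.1%, 25.5%, and 24.2%, although its mean was 0.282, 0.284, 0.453, and 0.402 UMIs per cell. The difference lay in a small fraction of cells with many UMIs. Cells with 3 or more Bcl2l11 UMIs made up 0.743% in library 5 (Clopper-Pearson 95% interval 0.502 to 1.06), 0.457% in library 6 (0.283 to 0.697), 4.86% in library 7 (4.30 to 5.47), and 4.13% in library 8 (3.53 to 4.81). The variance over the mean, which is 1 for random sampling of equal cells, was 1.26, 1.06, 2.26, and 2.02. For Bax it was 1.33, 1.32, 1.22, and 1.17, and for Mcl1 1.34, 1.36, 1.11, and 1.15. Only Bcl2a1b had values of this size in every library (1.87 to 2.20). These measures of spread were added after the values were seen.

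Cells with many Bcl2l11 UMIs were not confined to 1 cluster. In libraries 7 and 8 they made up 3.79% and 3.36% of cluster B, 7.21% and 6.82% of cluster C, and 7.17% and 3.45% of cluster F. Apart from the sparse Bcl2a1a, the mean of each other member in these cells was 0.499 to 1.18 times that in the remaining cells of libraries 7 and 8. It was 0.763 and 0.966 times for Bax, 0.499 and 0.670 times for Bbc3, 0.978 and 1.01 times for Mcl1, and 1.08 and 1.12 times for Bcl2. Bbc3 was sparse in these cells, with means of 0.0573 and 0.0818 UMIs, and no intervals were computed for these values. In libraries 5 and 6, with 30 and 21 such cells, Bax was 1.61 and 1.27 times and Bbc3 1.25 and 0.897 times. Without the 5% of cells with the most UMIs, the variance over the mean of Bcl2l11 was 1.29, 1.06, 2.31, and 2.04. Thinned to 3000 UMIs, it was 1.15, 1.06, 1.76, and 1.81.

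**Figure D4:**
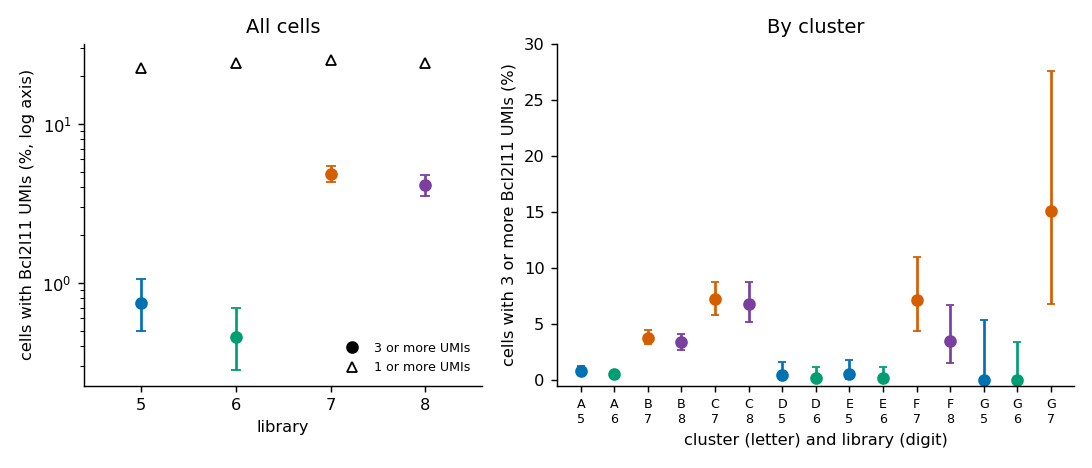
Left, share of cells with at least 1 (triangles) and at least 3 (points) Bcl2l11 UMIs per library on a log axis. Right, share of cells with at least 3 by cluster and library, with Clopper-Pearson 95% intervals. The shares with at least 1 UMI are 22.5% to 25.5%, while those with at least 3 are 0.743% and 0.457% in libraries 5 and 6 and 4.86% and 4.13% in libraries 7 and 8.

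The kept cells formed 7 clusters, A to G, built without the members and the other listed genes. Clusters A, D, and E were almost wholly cells of libraries 5 and 6, and clusters B, C, and F of libraries 7 and 8, so members were compared only within a library, against its largest cluster (A or B). Leading genes were Ung and Chaf1a in cluster C, Ccl4 and Ccl3 in cluster D, Ccna2 in cluster E, and Ube2c in cluster F. Cluster G, led by Jchain, held 70, 108, 56, and 33 cells of libraries 5, 6, 7, and 8. The ratio of pro-survival to pro-death UMIs was 4.24 to 4.86 in clusters A, D, and E and 2.05 to 2.46 in clusters B, C, and F. Because these 2 sets of clusters hardly shared a library, cluster and library cannot be told apart in these ranges. In cluster G, which held cells of every library, the ratio was 3.55, 3.44, and 1.65 in libraries 5, 6, and 7.

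In cluster D, Bcl2a1d was 349 CPM in library 5 and 337 CPM in library 6, compared with 162 and 155 CPM in cluster A. These are 2.15-fold (2.04 to 2.27) and 2.18-fold (2.07 to 2.30) higher values, and 4.14% of all genes were at least 2-fold higher in cluster D in both libraries. With clustering resolutions of 0.1 and 0.5, Bcl2a1d did not pass the 2-fold limit. Bcl2a1b was 787 and 781 CPM in cluster D against 399 and 397 CPM in cluster A, which was 1.97-fold in each library and just under the limit of 2. Bax was 1.42-fold higher in both libraries, and Mcl1 was 0.819-fold and 0.794-fold. Because both sides were higher, the ratio of 4.85 and 4.80 in cluster D was close to that of cluster A (4.76 and 4.86).

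In the Jchain-high cluster G, Bcl2 was 105 CPM in library 5, 106 CPM in library 6, and 122 CPM in library 7, while the largest clusters had 282, 313, and 244 CPM. Bcl2 was thus 2.68-fold, 2.96-fold, and 2.00-fold lower, and 1.4% of all genes were at least 2-fold lower in each library. The interval in library 7 (1.63 to 2.48) spanned the limit of 2, and with a clustering resolution of 0.5 rather than 0.3 no member passed this limit between clusters (0 members). Bcl2a1b was 3.37-fold, 2.80-fold, and 1.48-fold lower, and Bcl2a1d was 3.16-fold, 4.63-fold, and 1.40-fold lower. Mcl1 was not lower in this cluster (1.05-fold, 1.12-fold, and 1.39-fold higher). Bcl2l11 was 63.2 and 55.6 CPM in libraries 5 and 6, close to cluster A, but 236 CPM in library 7, 3.01-fold above cluster B (2.57 to 3.49). The ratio of pro-survival to pro-death UMIs in cluster G was 3.55, 3.44, and 1.65, the lowest of the clusters in each of these libraries. Cells with a Jchain UMI made up 37.3%, 38.7%, and 94.3% of the thinned cluster G in libraries 5, 6, and 7, so the cluster did not hold the same mix of cells in each library.

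Proliferating cells differed less. In clusters C and F, with S-phase and mitotic genes, Bcl2l11 was 1.49-fold and 1.55-fold above cluster B in cluster C and 1.66-fold and 1.64-fold above it in cluster F, in libraries 7 and 8. Bbc3 was 0.554-fold and 0.579-fold of cluster B in cluster C. Bax was 0.700-fold and 0.709-fold in cluster F but 1.01-fold of cluster A in the mitotic cluster E of libraries 5 and 6. In cluster E of libraries 5 and 6, the low Pmaip1 was 1.73-fold and 1.78-fold of cluster A, and Bcl2 was 0.786-fold and 0.723-fold. In cluster F, Pmaip1 was 1.745-fold of cluster B in library 7 and 1.19-fold in library 8. None of these passed 2-fold. The cells of clusters C and F had more UMIs (medians 12607 to 16456 per cell) than those of cluster B (9296 and 9544).

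**Figure D5:**
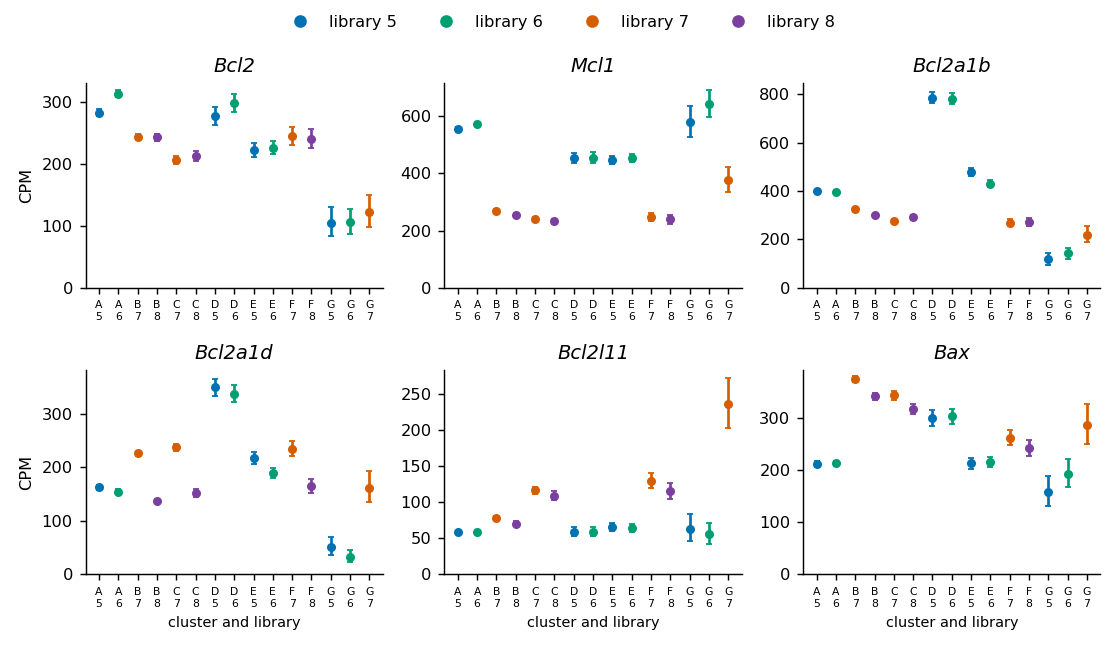
CPM of 6 members in each cluster (letter) and library (digit) with at least 50 cells, with exact Poisson 95% intervals. Bcl2a1b and Bcl2a1d are highest in cluster D, Bcl2 is lowest in cluster G, and Bcl2l11 reaches 236 CPM in cluster G of library 7.

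Over the 15 library and cluster groups, the gene most like each member was sought by Pearson correlation of log2(CPM + 1). The groups share libraries, and the values are descriptions only. Mcl1 was most like Laptm5 (r = 0.990), Bax like Ehd1 (0.983), Bcl2l1 like Dnajc1 (0.976), and Bcl2 like Lacc1 (0.962). Bcl2a1b was most like Slc31a2 (0.951), Bcl2l11 like Igf2r (0.941), and Bcl2a1d like Trp53 (0.930). Bbc3 had no close match, with 0.705 for Narfl.

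The other genes of the pathway were described by the same 2-fold limit, which 29.8% of all genes passed. Of 15 other family relatives, 8 reached 5 CPM and 2 passed. Bmf, which encodes a BH3-only protein, was 15.6, 14.9, 1.19, and 1.05 CPM in libraries 5, 6, 7, and 8, a 14.9-fold range and opposite in order to Bcl2l11. Bmf reached 5 CPM over all cells only through libraries 5 and 6. Bnip3l was 108, 112, 49.6, and 50.1 CPM, and Bnip3 had a range of 1.84-fold. The effector Bak1 was flat (24.8 to 25.8 CPM), unlike Bax. Of 12 caspase and apoptosome genes at this level, 6 passed, led by Cycs, the cytochrome c that Bax releases, at 119.6, 118.5, 365, and 378 CPM, Endog (2.68-fold), and Casp9 (2.58-fold, higher in libraries 5 and 6). Casp9 was 10.2, 9.59, 4.46, and 3.96 CPM, so it also reached 5 CPM over all cells only through libraries 5 and 6.

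None of the 6 inhibitor genes passed, and their median range was 1.40-fold. Birc5 had the largest (1.81-fold), then Birc3 (1.48-fold) and Cflar (1.46-fold). Of 11 p53 response genes, 5 passed, with the largest ranges in Perp (35.5-fold, 22.0 to 61.3), Trp53inp1 (8.14-fold), and Sesn2 (3.46-fold). Perp was 0.401, 0.329, 11.7, and 9.85 CPM in libraries 5, 6, 7, and 8. It reached 5 CPM over all cells only through libraries 7 and 8. Trp53inp1 was higher in libraries 5 and 6, and Perp and Sesn2 in libraries 7 and 8. In libraries 5, 6, 7, and 8, Trp53inp1 was 28.0, 29.6, 3.85, and 3.63 CPM, and Sesn2 was 4.17, 3.87, 13.4, and 12.2 CPM. Like Perp, each reached 5 CPM over all cells only through the libraries where it was high. Of 6 other regulators, 3 passed, Atf4 (94.5, 93.6, 305, and 277 CPM), Foxo1 (79.9, 83.5, 25.8, and 26.9 CPM), and Ddit3 (28.9, 27.9, 61.7, and 53.1 CPM). Foxo1 mRNA was lower in libraries 7 and 8, where Bcl2l11 was higher, and Bbc3 was nearly level. FOXO activity was not measured, and a link between Foxo1 and either gene was not tested.

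Members were also measured in the cells that the mitochondrial limit removed, 246, 346, 128, and 107 cells in libraries 5, 6, 7, and 8 with at least 1000 genes. Compared with kept cells of the same library, 4 of the 10 members had a lower value in all 4 libraries and 1 had a higher value. Among the 9 members of at least 5 CPM, 3 were lower and 1 was higher, while 18.3% of all 8234 genes at this level were lower and 18% were higher. These counts use the values without their intervals, and the intervals lay below 1 in all 4 libraries for 2 members, Bcl2a1b and Bcl2a1d. Bcl2a1b was 0.825, 0.704, 0.504, and 0.434 times its level in kept cells, and Bcl2a1d was 0.779, 0.686, 0.490, and 0.385 times. Bax was 0.993, 0.835, 0.478, and 0.371 times, and Bcl2 was 1.01, 1.15, 1.58, and 2.03 times. Bcl2a1a, at 3, 6, 0, and 0 UMIs in the removed cells, was the remaining member with lower values, and its intervals included 1 in every library. In library 5 the intervals for Bax (0.903 to 1.09) and Bcl2 (from 0.923 upwards) included 1. For Bcl2, Bcl2a1b, Bcl2a1d, and Bax, the difference was smallest in library 5 and largest in library 8. Bcl2l11 was lower in library 5 (0.794 times) and higher in libraries 7 and 8 (1.72 and 1.71 times). The ratio of pro-survival to pro-death UMIs in the removed cells was 4.50, 4.59, 2.56, and 2.82.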

How the data were processed

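The deposited matrix holds the authors' UMI counts per gene and cell, made with Chromium Single Cell 3′ v3 libraries, bcl2fastq, and Cell Ranger (version 3.1.0) on mm10, and combined with Cell Ranger aggr. Values were not imputed. The 19920 barcodes were taken as the last of 35989 columns. The other 16069 columns were not used. Cells with at least 1000 genes and under 10% mitochondrial UMIs were kept. Doublets were not called or removed.

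UMIs were summed per library. Exact Poisson, conditional, and Clopper-Pearson 95% intervals were computed in SciPy (version 1.17.1). Ranges between libraries were read over genes of at least 5 CPM. Thinning used a fixed seed. Clusters were formed in Seurat (version 5.3.0) from 1959 variable genes, 20 principal components, 20 neighbors, and Louvain at 0.3. Each cluster of at least 50 cells was compared with the library's largest. TMM factors came from edgeR (version 4.0.16), positions from GENCODE vM21, and alignments from Biopython (version 1.88). Fold ranges and intervals were tested on simulated counts with Poisson error only. The simulation held no variation between cultures, mice, or cells. All 10 members are named. From the other lists, the 3 largest ranges that passed 5 CPM are named. Bak1 was named after its values were seen. Members and lists were chosen with earlier results of these data known.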

Additional observations from a re-analysis of the deposited data

How the results depend on the processing

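Mcl1 and Bcl2l1 were the 2 members past a 2-fold range between libraries under 3 other scalings, with every barcode kept, with a minimum of 500 genes, without the 5% of cells with the most UMIs, and with each library left out in turn. With a limit of 1.5-fold, 7 members passed, as did 55.1% of all genes. The share of all genes past 2-fold was 33.6% for genes of at least 1 CPM and 44.9% for genes of at least 10 UMIs. The ratio of pro-survival to pro-death UMIs depended on which genes were summed. Without the Bcl2a1 genes it was 2.60, 2.72, 1.09, and 1.17 in libraries 5, 6, 7, and 8. With other relatives, most of them pro-death, it was 3.56, 3.54, 1.89, and 1.85. The ratio was always above 1. With every barcode or without the 5% of cells with the most UMIs, it stayed within the counting error of the reported values. At a clustering resolution of 0.5, 0 members passed 2-fold between clusters, compared with 2 at 0.3. At 0.1, Bcl2 and Bcl2l11 passed, and with 10 or 30 principal components Bcl2 and Bcl2a1d did. The cause was not tested. Thinning to 3000 UMIs or not thinning moved all 40 shares of cells with a member UMI in each case, as fewer or more UMIs per cell were counted. On nuclear UMIs alone, 3 rather than 4 members were lower in the removed cells of every library. No paired analysis was possible because no library could be tied to a replicate. The intervals hold counting error only, and differences between mice or cultures could not be separated from those between libraries.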

Other observations

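The libraries fell into 2 clusters of values on several genes of the family, although no label ties them to groups. Libraries 5 and 6 had Mcl1 at 524 and 540.5 CPM, Bcl2l1 at 9.43 and 9.84 CPM, and Bmf, a relative outside the 10 members, at 15.6 and 14.9 CPM. Libraries 7 and 8 had Mcl1 at 261 and 250.2 CPM, Bcl2l1 at 35.3 and 38.1 CPM, and Bmf at 1.19 and 1.05 CPM. Bbc3 did not separate them, at 21.1, 20.2, 20.8, and 22.9 CPM in libraries 5, 6, 7, and 8. Bmf reached 5 CPM over all cells only through libraries 5 and 6, so its difference is no support for a split. A range of at least 2-fold between libraries was found for 29.8% of all genes, so such a range is not particular to the family.

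Within the Jchain-high cluster G, cells with 3 or more Bcl2l11 UMIs made up 15.1% in library 7 (Clopper-Pearson 95% interval 6.75 to 27.6), of 53 cells, and 0% in libraries 5 and 6, of 67 and 106 cells (upper bounds 5.36% and 3.42%). The cluster did not hold the same mix of cells in these libraries. A Jchain UMI was found in 94.3% of its thinned cells in library 7, but in 37.3% and 38.7% in libraries 5 and 6.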
